A study of Mus musculus with 6 samples.

Results

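The Dlk1 and Meg3 locus is an imprinted region of mouse chromosome 12, and its chromatin contacts were followed in P19 cells over the first 48 h of treatment with all-trans retinoic acid (ATRA). Its members were the pairs of 5 kb bins with the centre of at least 1 bin between 110.6 and 111.1 Mb of chromosome 12 (build mm9), 1283 of the 3654010 nuclear pairs in the deposited list. Dlk1 was placed near 110.69 to 110.70 Mb and Meg3 near 110.78 to 110.81 Mb. A Dlk1 bin was part of 26 of these pairs and a Meg3 bin of 119.

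P19 is a mouse embryonal carcinoma cell line that retinoic acid can drive towards neurons. The 3 groups, of 2 Hi-C libraries each, were untreated cells (T0), cells after 6 h of 1e-06 M ATRA (T6) and cells after 48 h of it (T48), all grown as monolayers. Untreated cells of the later times were not analysed here, so the effects of ATRA and of culture time cannot be told apart. The labels do not describe the replicates as separate cultures, and the p-values therefore cover the spread between libraries, which may be technical. Listed counts summed to between 23003295 and 50154643 per library.

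Imprinted genes are expressed from the allele of 1 parent. Dlk1 encodes a transmembrane ligand-like protein of the Notch pathway and is expressed from the paternal chromosome, while Meg3 (Gtl2) gives a long non-coding RNA from the maternal chromosome. An imprinting control region between the genes, methylated on the paternal chromosome, sets which genes of the domain are active. In the RefSeq gene order of build GRCm38, Begain lies before Dlk1, and Meg3 is followed by Rtl1, a retrotransposon-derived gene, by Rian and Mirg, hosts of small nucleolar RNAs and microRNAs, and by Dio3, a thyroid hormone deiodinase. Both genes are transcribed towards higher coordinates, so lower coordinates are called upstream and higher ones downstream here. The counts do not separate the parental chromosomes, and no RNA was measured.

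The promoters of both genes are shown as sequences and were not placed on the contact bins. They come from RefSeq on build GRCm38.p6, whose coordinates differ from those of the contacts, and each covers 250 bases before to 50 bases after the start, on the plus strand. Capitals mark matches to the motifs searched on both strands: AGGTCA, the core bound by retinoic acid receptors, its variant GGGTCA, the cAMP response element TGACGTCA and the TATA box TATAAA.
Dlk1, chr12:109452573-109452872: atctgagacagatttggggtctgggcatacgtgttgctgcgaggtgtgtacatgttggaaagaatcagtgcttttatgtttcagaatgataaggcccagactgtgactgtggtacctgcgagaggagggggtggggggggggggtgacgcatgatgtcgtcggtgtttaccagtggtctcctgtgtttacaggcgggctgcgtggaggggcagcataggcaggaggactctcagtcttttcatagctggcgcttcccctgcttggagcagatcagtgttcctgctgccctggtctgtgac
Meg3, chr12:109540746-109541045: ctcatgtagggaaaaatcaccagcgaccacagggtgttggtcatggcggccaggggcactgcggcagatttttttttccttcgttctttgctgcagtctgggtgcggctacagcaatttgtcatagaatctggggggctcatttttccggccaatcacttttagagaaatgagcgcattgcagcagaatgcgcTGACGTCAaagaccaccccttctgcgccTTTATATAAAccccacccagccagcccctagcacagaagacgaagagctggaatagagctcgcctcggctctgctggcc
The Dlk1 window held none of these letter strings. The Meg3 window shown held TGACGTCA, whose first base lies 57 bases before the start. It also held TATAAA from 25 bases before the start, overlapping a match on the other strand from 29 bases before it. RefSeq lists another Meg3 start, with the window chr12:109545148-109545447, which held AGGTCA on the other strand, beginning 141 bases before that start. Among 32851 promoter windows of the same length, TGACGTCA was present in 1.79%, TATAAA in 13.6%, AGGTCA in 16.3% and GGGTCA in 13.7%. A match describes letters and was not measured as a bound site.

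An interaction is a pair of bins that the authors called significant and found in both libraries of a group, and a count of 0 means that the pair was not listed for that group. The locus had 634 interactions in untreated cells, 511 after 6 h and 623 after 48 h, which were 0.0332%, 0.0316% and 0.0341% of the lists. It held more interactions than 79.8%, 75.3% and 82.1% of 5034 stretches of the same length across the genome. The medians of these stretches were 480, 404 and 472. Stretches with few listed pairs were left out beforehand, so these percentiles and medians are not those of all stretches. From T0 to T48 the number of locus interactions changed by a factor of 0.983, against a median of 0.986 over the stretches kept. The lists exist per time point, so these numbers have no replicate error. The median count of a listed locus pair was low, at 9 and 6 in the T0 libraries, 9 and 6 at T6, and 8 and 6 at T48.

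The median distance of locus contacts was 175 kb at T0, 160 kb at T6 and 185 kb at T48. It was 67.5, 65 and 50 kb for pairs with both bins in the locus and 432.5, 440 and 465 kb for those with a partner outside. The median of the whole list was 75, 75 and 85 kb. Counting every pair that touches a stretch takes in more long pairs than a list of all pairs does, so these medians do not show that locus contacts were longer or shorter than others. Interactions with both bins in the locus numbered 350, 289 and 312, and those with a partner outside it 284, 222 and 311. Outside partners lay upstream in 127, 94 and 153 pairs and downstream in 157, 128 and 158. The stretch downstream of Meg3 had 31, 26 and 62 pairs with partners upstream of the locus, while pairs with both bins in that stretch numbered 136, 120 and 102.

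**Figure D1:**
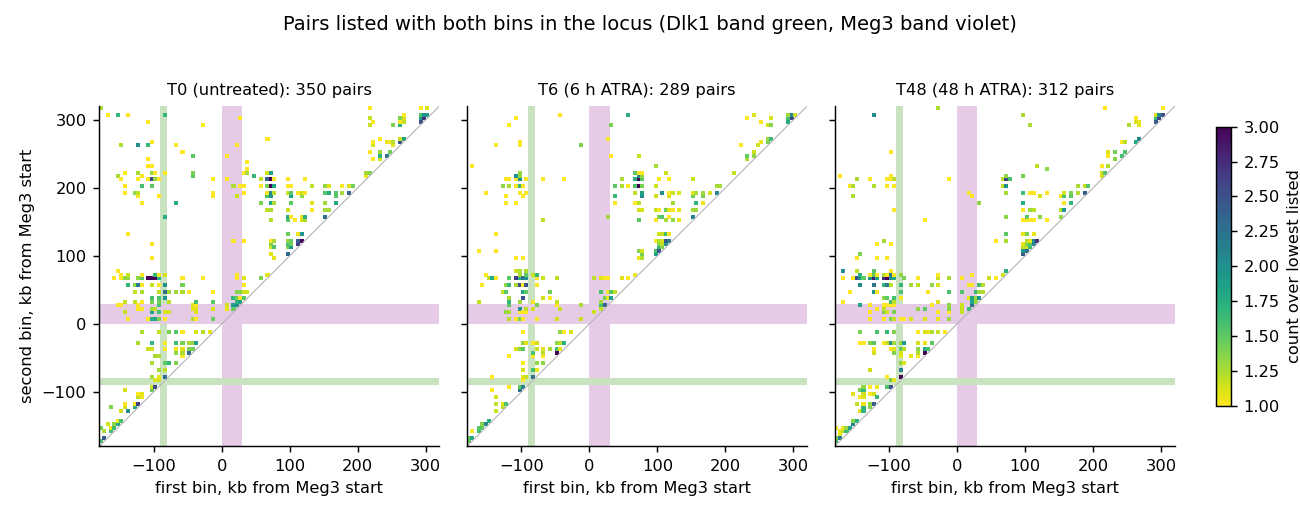
Pairs listed with both bins in the locus, at T0, T6 and T48. Each point is a pair, placed by the distance of its bins from the start of Meg3 in kb and coloured by its count over the lowest count listed for its distance (the lower of the replicates' ratios); 350, 289 and 312 pairs are drawn, and those joining the bins just upstream of Dlk1 with bins about 70 kb after the start of Meg3 are present in all 3 panels.

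Most interactions were listed at a single time point. All 3 lists shared 123 locus pairs, 9.59% of 1283, or 16.1% of the 595 pairs with both bins in the locus, against 14.9% genome-wide. Shared pairs were short, with a median of 20 kb in the locus and 10 kb in the genome. By contrast, 336 (26.2%) were in the T0 list alone, 251 (19.6%) in the T6 list alone and 334 (26.0%) in the T48 list alone. In the genome these shares were similar, at 24.7%, 19.1% and 24.5%. T0 and T6 shared 196 pairs, which were 30.9% of the T0 list and 38.4% of the T6 list, against 40.2% and 47.5% in the genome. T0 and T48 shared 225, or 35.5% and 36.1% of each, against 40.9% and 42.8%. The locus set takes in more long pairs, so these shares are not matched for distance. Of T0 locus interactions between 20 and 500 kb, 32.4% recurred in the T48 list (95% Wilson interval 28.2 to 36.9%, 441 pairs), against 29.4% in the genome. Of the 81 with counts at least 1.5 times the lowest listed, 49.4% recurred (interval 38.8 to 60.05%), against 55.6%. For T6 the share of these stronger pairs that recurred was 43.2% (interval 33.0 to 54.1%), against 60.3% in the genome (60.1 to 60.5%). The intervals cover counting error only, and the differences were not tested across replicates. Distances were not matched: at T0 the locus had 137 pairs of 20 to 100 kb and 301 of 100 to 500 kb, against 545429 and 652926 in the genome.

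Of the pairs listed at a single time point, the 3 with the highest count over the lowest listed for their distance are named for each time point. At T0 the bins centred on 110937500 and 111127500 had 16 and 12 counts in the replicates, 2.67 times the lowest listed, and were not listed at T6 or T48. At T6 the bins centred on 110682500, just upstream of Dlk1, and 110817500, just downstream of Meg3, had 21 and 10 counts, 2.5 times the lowest. Also at T6 the bin centred on 110997500 was paired with 114632500, 3635 kb away, with 13 and 10 counts. At T48 the bins centred on 110812500 and 111497500 had 9 and 7 counts, 2.33 times the lowest. Others by the same rule were 110147500 with 110637500 and 110657500 with 111042500 at T0, 110642500 with 111137500 at T6, and 110322500 with 111097500 and 110332500 with 110837500 at T48, all with 6 to 11 counts.

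The bins with the most interactions lay on either side of the genes. Of the 100 bins of the locus, 32 had no pair at any time point, 7 of them among the 16 bins between Dlk1 and Meg3, 1 of the 2 Dlk1 bins and 2 of the 6 Meg3 bins. On the whole chromosome 26.8% of 23641 bins had none. The bin at chr12:110845001-110850000, downstream of Meg3, had the most interactions, with 29, 29 and 28 at the 3 time points. Its number was above that of 98.8%, 99.5% and 99.0% of listed bins in the genome, where the median bin had 10, 8 and 9. This bin was picked for the most pairs among 68, 65 and 67 locus bins with pairs, whose medians were 14, 12 and 14. Its percentiles follow in part from that choice and are no test of it. The adjacent bin at chr12:110850001-110855000 had 29, 24 and 28. Upstream of Dlk1, the bins at chr12:110675001-110680000 (27, 21 and 21), chr12:110680001-110685000 (16, 24 and 21) and chr12:110625001-110630000 (20, 16 and 25) were the others among the top 3 of a time point. The bin next to the last, chr12:110630001-110635000, had the same numbers, and downstream of Meg3 chr12:110835001-110840000 had 20, 22 and 21.

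The 2 leading bins, next to each other downstream of Meg3, faced both ways. Added over both bins, with the pair that joins them counted on each side, 27, 26 and 34 partners lay upstream and 31, 27 and 22 downstream. At T48 the first of them had 21 upstream and 7 downstream partners, against 17 and 12 at T0. At T48 the second had 13 upstream and 15 downstream partners, against 10 and 19 at T0. These are numbers of listed pairs without replicate error, so this shift was not tested in this form.

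**Figure D2:**
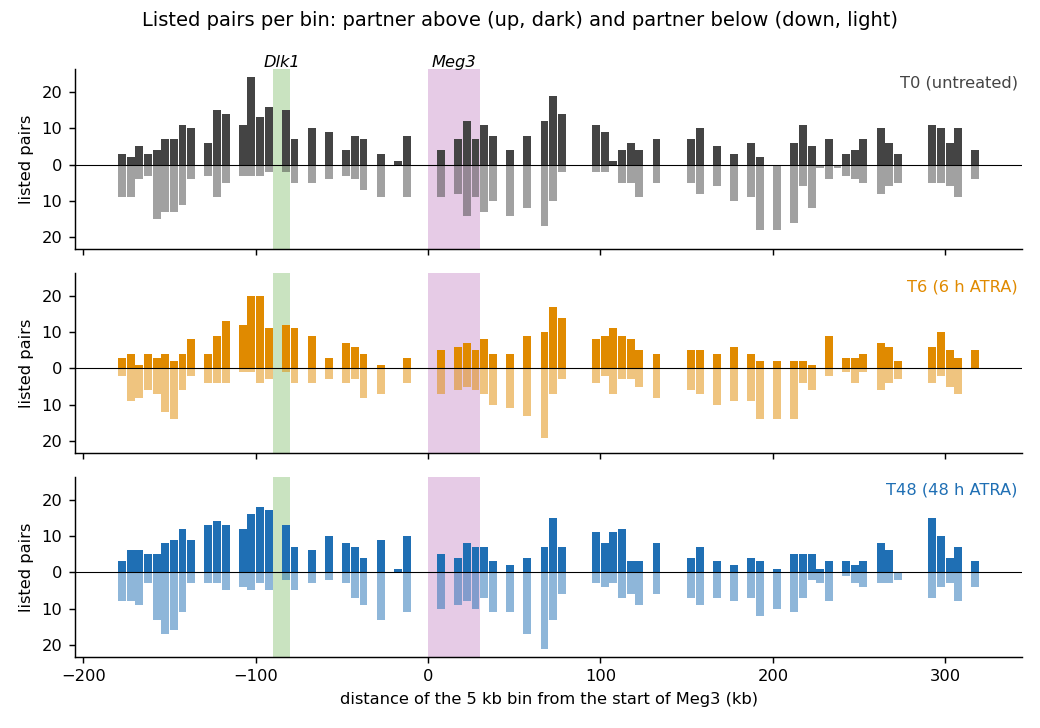
Number of listed pairs per 5 kb bin at T0, T6 and T48, by distance from the start of Meg3 in kb. Bars up count partners at higher coordinates and bars down partners at lower coordinates; the bins 65 to 75 kb after the start of Meg3 are among the tallest at each time point, with 29 and 29 pairs at T0.

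Of the 5 strongest lasting contacts of at least 20 kb, 3 joined the bin centred on 110847500 with bins just upstream of Dlk1, over both genes, and 2 lay wholly downstream of Meg3. Strength here is the count over the mean of all pairs of the same distance listed at all 3 time points, averaged over libraries. The bins centred on 110677500 and 110847500, 170 kb apart, had 32 and 15 counts in the T0 libraries, 28 and 7 in those of T6, and 21 and 16 in those of T48, a mean ratio of 1.64. The contact of 110682500 with 110847500 had 23 and 21, 20 and 9, and 18 and 10 counts, a mean ratio of 1.505. That of 110672500 with 110847500 had 19 and 12, 16 and 16, and 19 and 11 counts, a mean ratio of 1.41. All 3 contacts span Dlk1, the imprinting control region and Meg3. The median ratio of all 47 lasting locus pairs of 100 kb or more was 0.739. None of the 3 passed the edgeR test between time points, and their log2 ratios of T48 over T0 were -0.22, -0.55 and 0.06. Leaving out 1 library moved these to between -0.33 and -0.04, between -0.93 and -0.26, and between -0.06 and 0.14. The T0 and T48 libraries overlapped for the first and the third contact, and for the second the T48 ratios (1.46 and 1.02) were below those of T0 (1.63 and 2.27).

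The strongest contact of all 5, with a mean ratio of 1.82, lay downstream of Meg3. The bins centred on 110852500 and 110992500, 140 kb apart, had 42 and 19 counts in untreated cells, 23 and 15 after 6 h, and 16 and 13 after 48 h. Their strength was 2.39 times the mean of that distance at T0, 1.76 times at T6 and 1.30 times at T48, and the ratios of the T48 libraries were below those of every T0 library. The contact of 110852500 with 110982500, 130 kb apart, had 23 and 15, 30 and 16, and 14 and 10 counts, with ratios of 1.29, 1.71 and 0.891.

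Few direct contacts between Dlk1 and Meg3 could be listed. Of the 2 Dlk1 bins 1 had no pair at any time point, and of the 6 Meg3 bins 2 had none. The number of direct contacts was not set against an expected one. The Dlk1 and Meg3 intervals were joined by 3 listed pairs in all, of which the T0 list held 2 and the T6 and T48 lists 1 each, and none was in all 3 lists. The Dlk1 bin centred on 110697500 met 110787500 with 9 and 6 counts at T0 and 11 and 6 at T48, and was not listed with it at T6. It met 110797500 with 9 and 6 counts at T0 alone, and 110802500 with 8 and 7 counts at T6 alone. Counts this close to the lowest listed do not separate the time points.

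Contacts of Dlk1 went mostly downstream, as did those of the bins just upstream of it. The interval has 2 bins. Its first, chr12:110690001-110695000, had no listed pair, and the start of Dlk1 may lie in it. All listed pairs came from the bin at chr12:110695001-110700000, with 17, 13 and 15 pairs at the 3 time points. Of these, 15, 12 and 13 had a partner downstream. The bin at chr12:110685001-110690000 had 16, 11 and 17 partners downstream and 2, 3 and 5 upstream. That at chr12:110675001-110680000 had 24, 20 and 16 downstream and 3, 1 and 5 upstream. For the Dlk1 pairs the median distance was 100 kb at T0, 105 kb at T6 and 45 kb at T48, and 9, 7 and 5 of them were 100 kb or longer. Pairs with 110827500 (16 and 12 counts at T0, 11 and 11 at T48) and 110837500 (18 and 10, then 10 and 12) were listed at T0 and T48 and not at T6.

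The summed count of lasting Dlk1 contacts was higher at T48. The 5 pairs of the Dlk1 bin that were listed at all 3 time points had 220 and 109 counts in untreated cells, 224 and 113 after 6 h, and 277 and 195 after 48 h. Scaled to counts per 1000000 over all lasting pairs of the library (CPM), these were 7.59 and 6.56, then 8.55 and 7.96, then 11.0 and 11.5. Every T48 library was above every T6 library, and every T6 library above every T0 library. The means were 7.07 ± 0.729, 8.25 ± 0.417 and 11.3 ± 0.361 (SD, n = 2), a log2 ratio of 0.67 for T48 over T0, with 0.54 in replicate 1 and 0.81 in replicate 2. In a two-sided exact permutation test of the libraries p was 0.333, the smallest that 2 against 2 can give. The ratio of T6 over T0 was 0.23 and turned to -0.11 when every pair listed at the time point was summed.

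Most of the Dlk1 difference lay in its nearest contact. The Dlk1 bin and the next bin downstream, centred on 110702500, had 104 and 58 counts in untreated cells, 122 and 55 after 6 h, and 164 and 111 after 48 h. This pair had the lowest p of the locus for T48 over T0, with a log2 ratio of 0.88 (SE 0.213), an unadjusted p of 0.0034 and an adjusted p of 0.761. Its strength was 1.15 times the mean of neighbouring bins at T0, 1.39 times at T6 and 2.10 times at T48. Without pairs under 15 kb the log2 ratio of the Dlk1 sum was 0.47. The contact of Dlk1 with 110712500 had 66 and 19, 56 and 24, and 56 and 36 counts, that with 110682500 had 30 and 18, 25 and 22, and 36 and 25, and that with 110752500 had 12 and 7, 14 and 7, and 13 and 13. The contact with the leading bin centred on 110852500, 155 kb away, had 8 and 7, 7 and 5, and 8 and 10 counts.

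The edgeR fit of counts summed per 5 kb bin gave no call for the Dlk1 bin. Its counts are those of the same 5 lasting pairs, so the order of the groups repeats that of the Dlk1 sum and is no separate result. In edgeR's quasi-likelihood test of the Dlk1 bin the T48 over T0 log2 ratio was 0.64 (SE 0.109, adjusted p 0.514 and 0.000593 before adjustment), for T6 over T0 0.22 (SE 0.112, adjusted p 1.00) and for T48 over T6 0.42 (SE 0.108, adjusted p 0.909). Its ratio for T48 over T0 was above that of 98.7% of 310746 bins. The next bin downstream, which shares the strongest Dlk1 pair, had 0.59 (SE 0.125, adjusted p 0.685). Of the 61 locus bins tested, 0 passed at an adjusted p of 0.05 in any of the 3 comparisons in edgeR or DESeq2. Of all bins, edgeR called 0.0%, 0.00579% and 0.00418% for T6 over T0, T48 over T0 and T48 over T6, and DESeq2 0.0132%, 0.0621% and 0.0479%. At an unadjusted p under 0.05 there were 1, 3 and 3 locus bins, against 2.47%, 6.11% and 5.41% of all bins.

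Meg3, whose interval has 6 bins against 2 for Dlk1, had more listed pairs in all. Single Meg3 bins with pairs had 13 to 26 at T0, 11 to 12 at T6 and 13 to 17 at T48. The single Dlk1 bin with pairs had 17, 13 and 15. The Meg3 bins together had 65, 43 and 56 listed pairs at the 3 time points. Of their partners 35, 20 and 32 lay upstream, 5, 4 and 5 inside the gene and 25, 19 and 19 downstream. The median distance was 120, 105 and 87.5 kb. The 10 pairs listed at all 3 time points summed to 14.3 and 13.0 CPM in the T0 libraries, 12.5 and 13.2 in those of T6, and 16.4 and 13.3 in those of T48. The T0 libraries overlapped those of both other groups, and the means were 13.7 ± 0.958, 12.8 ± 0.488 and 14.8 ± 2.18 (SD, n = 2). The log2 ratios were -0.09 for T6 over T0 and 0.11 for T48 over T0. The T6 and T0 means differed by less than the T0 replicates did and by more than the T6 replicates did. The T48 and T0 means differed by less than the T48 replicates did. Without T48 replicate 1 the ratio of T48 over T0 was -0.04. Both T48 libraries lay above both T6 libraries, with a log2 ratio of 0.20, and they overlapped when scaled to all listed pairs.

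Inside Meg3, the contact of the bins centred on 110797500 and 110802500 had 57 and 37 counts in untreated cells, 46 and 28 after 6 h, and 80 and 41 after 48 h. It was among the 3 pairs with the lowest p for T48 over T6, with a log2 ratio of 0.62 (SE 0.208) and an adjusted p of 0.952. The next contact inside the gene, 110802500 with 110807500, had 108 and 50, 106 and 57, and 101 and 57. Upstream, 4 lasting contacts joined Meg3 with bins just before Dlk1, 105 to 120 kb away. Of these, 110797500 with 110677500 had 13 and 11, 7 and 6, and 8 and 6 counts, 110787500 with 110682500 had 15 and 9, 10 and 5, and 10 and 7, and 110797500 with 110687500 had 15 and 8, 10 and 5, and 11 and 7, all 3 highest at T0 in raw counts. The fourth, 110787500 with 110672500, had 7 and 8, 9 and 5, and 10 and 5, without that order. The Meg3 bin at chr12:110800001-110805000 had 26, 12 and 16 listed pairs, among the largest losses of the locus from T0 to T48. Its lasting pairs held 7.28 and 6.62 CPM at T0 and 9.02 and 7.62 at T48, higher in place of lower. The bin at chr12:110810001-110815000, just after the gene, had 24, 15 and 14 listed pairs, and its lasting pairs held 4.59 and 3.73 at T0 and 5.05 and 4.37 at T48, which overlapped.

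**Figure D3:**
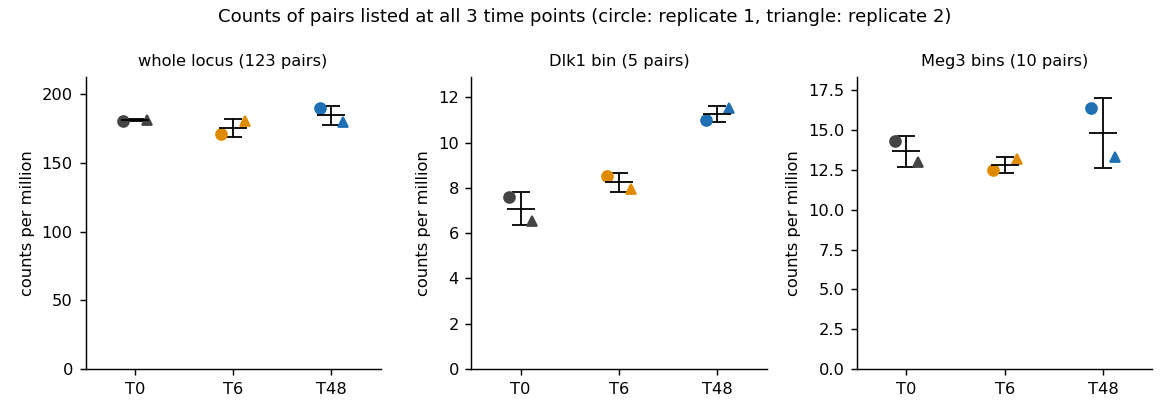
Summed CPM of pairs listed at all 3 time points for the whole locus (123 pairs), Dlk1 (5 pairs) and Meg3 (10 pairs). Points are libraries (circle replicate 1, triangle replicate 2), dashes and bars the mean and SD of 2; the Dlk1 values at T48, 11.0 and 11.5, are above all others of Dlk1, while the Meg3 values at T0 overlap those at T6 and T48.

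The share of contact counts held by the locus as a whole differed little between time points. Its 123 lasting pairs held 180.4 and 181.4 CPM in untreated cells, 170.9 and 180.2 after 6 h, and 189.6 and 179.5 after 48 h. The means were 181 ± 0.683, 176 ± 6.57 and 185 ± 7.14 (SD, n = 2). The T48 values lay on both sides of those of T0, and both T6 values lay below them, the nearer by less than the gap between the T6 replicates. The log2 ratio was -0.04 for T6 over T0, 0.03 for T48 over T0 and 0.07 for T48 over T6, and that of T48 over T0 was -0.01 without T48 replicate 1. Scaled to all listed pairs in place of the lasting ones, the ratio of T6 over T0 became 0.11 and that of T48 over T6 became -0.06.

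No single contact of the locus passed the test between time points. In edgeR's quasi-likelihood test 100 of the 123 lasting pairs passed the filter on low counts and 0 were called for T6 over T0, T48 over T0 or T48 over T6, as in the genome, where 0.0% of 496203 pairs were called in each comparison. At an unadjusted p under 0.05 there were 3, 6 and 5 locus pairs, against 3.17%, 5.52% and 5.06% of all pairs. DESeq2 also called 0 locus pairs, and 0.000202%, 0.0189% and 0.0149% of all pairs. The median log2 ratio of the 100 pairs was -0.06, 0.04 and 0.07, and that of all pairs 0.00 in each comparison. With 2 libraries a group, a call of 0 does not show that a contact was equal between time points.

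The pairs with the lowest p for T6 over T0 were chosen by that rank. The adjacent bins centred on 111082500 and 111087500, at the far end of the locus, had 106 and 48 counts in untreated cells, 53 and 28 after 6 h, and 78 and 63 after 48 h. Their log2 ratio was -0.72 (SE 0.214, adjusted p 1.00) for T6 over T0 and 0.76 for T48 over T6 (adjusted p 0.919). The pair of 110142500 and 110627500 had 15 and 9, 5 and 4, and 11 and 7 counts, and that of 110677500 with 110837500 had 7 and 8, 15 and 12, and 13 and 13. In each of the 3 pairs T6 lay on the same side of T0 within both replicate numbers, and none passed the test.

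Sums over 50 kb windows also gave no call in the locus. All 10 windows were tested among 49387, and 0 passed in the 3 comparisons (in the same order as above), where 0.0%, 0.0263% and 0.0182% of all windows were called. DESeq2 called 0 locus windows, and 0.0324%, 0.235% and 0.168% of all. At an unadjusted p under 0.05 there were 0, 2 and 2 locus windows, against 1.73%, 8.59% and 6.72%. In the T48 over T0 comparison those were the window that ends with Dlk1 and the window that follows it. The window at chr12:110650001-110700000 had 24.2 and 26.0 CPM in untreated cells, 24.5 and 24.6 after 6 h, and 27.8 and 28.5 after 48 h, a log2 ratio of 0.17 (SE 0.060, adjusted p 0.552). The window at chr12:110700001-110750000, between the genes, had 18.1 and 15.9, 17.3 and 18.0, and 20.6 and 19.9, a log2 ratio of 0.25 (SE 0.082, adjusted p 0.529). In both windows every T48 library was above every T0 and T6 library. Both hold the pair of Dlk1 with its neighbour, and with pairs of at least 15 kb alone their ratios were 0.10 and 0.04.

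The windows over and after Meg3 had ratios nearer to 0 or below it. The windows that start at 110750001 and 110800001, which hold Meg3, had log2 ratios of T48 over T0 of -0.05 and 0.13. The window at chr12:110850001-110900000 had 22.5 and 24.4 CPM in untreated cells, 21.9 and 23.0 after 6 h, and 20.9 and 21.1 after 48 h, a ratio of -0.16 (SE 0.067, adjusted p 0.589). The windows from 110900001 to the end of the locus had -0.07, -0.15, -0.09 and -0.07, and the first window of the locus 0.09. For T6 over T0 the 10 ratios ran from -0.15 to 0.05.

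**Figure D4:**
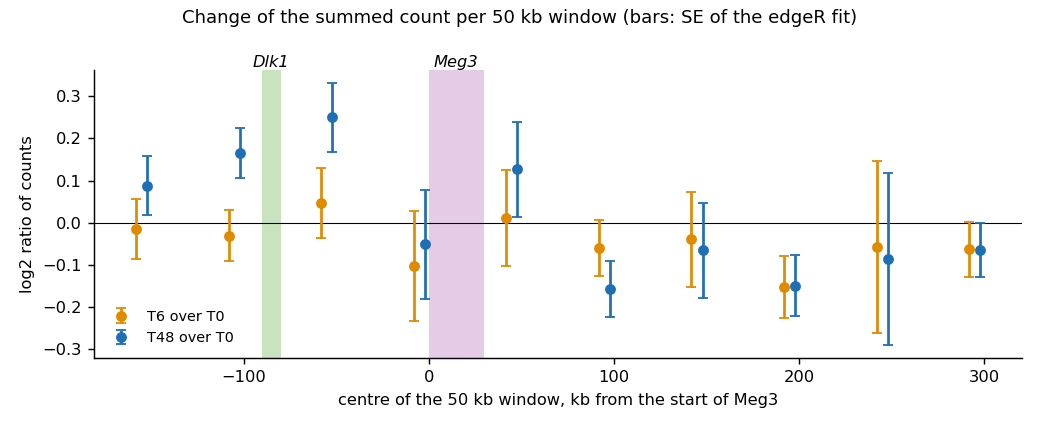
Log2 ratio of the summed count of lasting pairs per 50 kb window, T6 over T0 and T48 over T0, by distance of the window's centre from the start of Meg3 in kb. Points are edgeR estimates and bars their SE. For T48 over T0 the window that ends with Dlk1 lies at 0.17 and the window that follows it at 0.25, and no window passed the test.

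Contacts spanning a position were counted to follow the stretches on either side of the leading bins. Pairs of 20 to 200 kb were counted at every position 25 kb apart that they crossed, so neighbouring positions share pairs. At 110850000, next to the leading bins, 28, 20 and 20 pairs were listed at the 3 time points. This was a low point between its neighbours at T0 and T6, and at T48 the low point lay at the next position, 110875000, with 16. On the upstream side, at 110750000 between the genes, 76, 63 and 84 pairs spanned the position, and on the downstream side, at 110900000, 57, 50 and 34 did. Spanning pairs were thus more numerous over the genes and again at 110900000 than at the low point between them. The bins from 110860001 to 110875000, beside the low point, had no pair at any time point. Their part in it was not tested, nor was a division of the locus.

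At T48 fewer contacts were listed over the positions from 110875000 to 110975000. Nearer to Meg3, at 110825000, the numbers were 48, 38 and 50. At 110875000 there were 42, 33 and 16, at 110925000 there were 56, 52 and 32, and at 110975000 there were 27, 24 and 13. Relative to the length of the lists the T48 over T0 log2 ratio was -1.30 at 110875000, below all but 3.24% of 39867 positions in the genome, whose median was -0.19. At 110975000 it was -0.96, with 7.84% of positions below it. At 110900000, 110925000 and 110950000 it was -0.67, -0.73 and -0.79, with 16.9%, 14.6% and 12.7% of positions below. Upstream of Dlk1, at 110675000, 26, 21 and 44 pairs were listed, a ratio of 0.81 that was above 97.8% of positions. At 110700000, the end of Dlk1, there were 62, 55 and 75, a ratio of 0.34 that was above 88.7% of positions.

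From 110875000 to 110975000 the counts of lasting pairs were also lowest at T48, and those over the genes overlapped between groups. At 110825000, also after Meg3, lasting pairs held 5.72 and 7.46 CPM at T0 and 6.99 and 6.85 at T48, which overlapped. At 110875000 the lasting pairs held 4.17 and 3.61 CPM in untreated cells, 3.66 and 3.66 after 6 h, and 2.34 and 2.60 after 48 h. The T48 libraries were below all others, with a log2 ratio of T48 over T0 of -0.65 (SE 0.140, unadjusted p 0.00303, adjusted p 0.299). The position 110975000 was spanned by the same lasting pairs and has the same values. At 110925000 they held 5.83 and 5.11, 5.08 and 5.77, and 3.81 and 4.07, a ratio of -0.46 (SE 0.121, adjusted p 0.358). The pairs of the leading bins with 110982500 and 110992500 are among these contacts, and 110847500 with 110992500 had 23 and 12, 14 and 7, and 9 and 6 counts (log2 ratio -1.10, SE 0.268, adjusted p 0.829). Over the genes, at 110750000, lasting pairs held 8.48 and 10.8, 8.55 and 9.93, and 9.18 and 9.57, a ratio of 0.00 (SE 0.114).

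None of the 16 locus positions tested passed in edgeR or DESeq2 in any comparison, and edgeR called 0.0% and DESeq2 0.00629%, 0.0629% and 0.0251% of 47722 positions. For T6 over T0, 0 locus positions had an unadjusted p under 0.05, against 2.5% of all positions. For T48 over T0, 5 locus positions had an unadjusted p under 0.05, all lower at T48 and all after Meg3, against 9.42% of all positions. For T48 over T6 there were 4, also lower at T48, among them 110875000 with a log2 ratio of -0.54 (adjusted p 0.460), against 8.31% of all positions. These positions share pairs and are not independent. The counts were not corrected for the coverage of each bin, and the part of coverage in these differences was not tested.

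**Figure D5:**
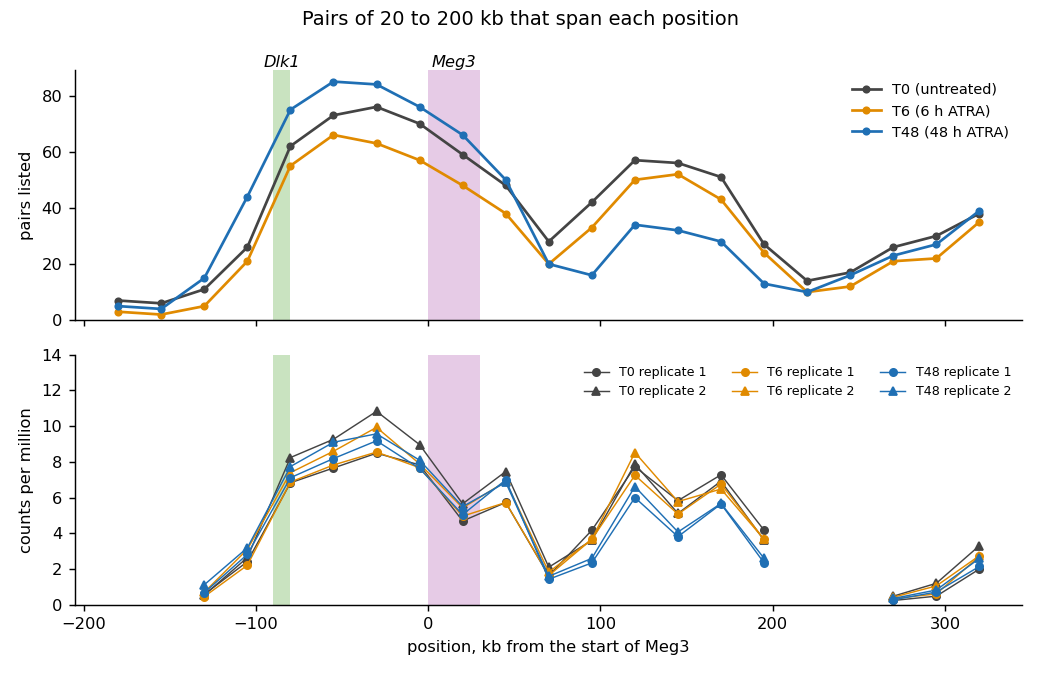
Pairs of 20 to 200 kb that span positions 25 kb apart, by distance from the start of Meg3 in kb. The upper panel gives the number listed per time point and the lower panel the CPM of pairs listed at all 3 time points, per library; after Meg3, at 95 kb, the listed pairs number 42, 33 and 16 and the T48 libraries are the lowest.

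The 3 bins with the largest gain of listed pairs from T0 to T48 lay between and after the genes, and other bins gained pairs upstream of Dlk1, such as chr12:110650001-110655000 with 9, 8 and 16. The bin at chr12:110885001-110890000 had 1, 18 and 14 pairs, none of them in all 3 lists, so its counts could not be tested. Its neighbour at chr12:110890001-110895000 had 9, 12 and 19, while its lasting pairs held 9.07 and 11.0 CPM at T0 and 8.50 and 8.80 at T48. The bin at chr12:110750001-110755000, between Dlk1 and Meg3, had 12, 8 and 22. The bin at chr12:111000001-111005000 had 17, 7 and 7, among the largest losses. Lasting pairs of chr12:110750001-110755000 held 5.17 and 6.01 CPM at T0 and 4.93 and 5.37 at T48. Those of chr12:111000001-111005000 held 1.72 and 1.62 at T0 and 2.34 and 1.48 at T48. In both of these bins the T0 and T48 libraries overlapped. Only at chr12:110890001-110895000 did lasting counts lie lower at T48 in every library while the number of listed pairs rose.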

How the data were processed

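Hi-C was used, which joins neighbouring DNA ends in crosslinked nuclei and reads the junctions by paired sequencing. The tools named in the submitters' processing notes are Bowtie2 and CASAVA 1.8.2, and the genome build is mm9. The enzyme and the caller with its settings are not given in the sources used here, and whether the calls were corrected for bin coverage is likewise not given. The authors deposited raw counts of read pairs per library for pairs of 5 kb bins, per the file headers, and the counts were used as deposited. Both libraries of a group always had a count together, and the lowest was 3. The 4 mitochondrial pairs were left out.

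Listed pairs were compared by number, distance and identity. Lasting pairs, those listed at all 3 time points, were tested with edgeR 4.0.16 (R 4.3.3) over the whole genome: TMM, filterByExpr, the quasi-likelihood F test on 6 libraries in 1 fit, two-sided, with Benjamini-Hochberg adjustment at 0.05. The same fit was run on sums per 50 kb window, each pair counted 1 time per window. CPM in a 50 kb window are relative to the sum over all windows of that size. Elsewhere, single bins included, they are relative to the sum over all lasting pairs. The 5 kb bins and the spanned positions were added as fits after the data were seen, and percentiles of spanned positions used those with at least 60 pairs over the 3 lists. Fits were tested on simulated counts. Alternatives were DESeq2 1.42.0, its size factors, no filter, a replicate block, other windows and distances, and leaving out each library. The members, lists and tests were chosen with earlier results of these data known. Pairs were named by rank: the 3 lowest p per comparison, the 5 strongest lasting pairs of at least 20 kb, the 3 of each time point's own pairs with the highest count over the lowest listed for their distance (ties by position), and the bins with the most pairs, gains and losses (3 each). Lasting pairs of Dlk1 and Meg3 and some of their other pairs, and positions spanned, were named after their values were seen. Gene order and promoters came from RefSeq tables on build GRCm38, matched by symbol for both genes. No gene other than these was placed on the contact map.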

Additional observations from a re-analysis of the deposited data

How the results depend on the processing

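The 0 calls among locus pairs, 50 kb windows, 5 kb bins and spanned positions were the same under every alternative run, with leaving out a library giving 0 to 0. At an unadjusted p under 0.05 there were 3, 6 and 5 pairs. The log2 ratio of the Dlk1 sum for T48 over T0 was 0.472 with pairs of at least 15 kb and 0.410 with every listed pair, and 0.569 to 0.780 without a library. For T48 over T6 it was 0.296 and 0.517 under these settings, 0.316 scaled to all listed pairs, and 0.397 to 0.5004 without a library. For T6 over T0 it was 0.375 scaled to all listed pairs and -0.107 with every listed pair, and 0.121 to 0.331 without a library. The Meg3 ratio of T6 over T0 was 0.058, -0.220 and -0.248 when scaled to all listed pairs, with pairs of at least 15 kb and with every listed pair. That of the whole locus was 0.105 (T6 over T0) and -0.061 (T48 over T6) scaled to all listed pairs. The stricter list, with counts at least 1.5 times the lowest, held 125, 96 and 128 locus pairs, and 350, 289 and 312 had both bins in the locus. Pairs of 500 kb or more were 16.7%, 15.3% and 20.5%. With anchors within 1 bin counted as shared, 58.4% of T0 pairs were found at T6 and 59.6% at T48, and 63.6% of T6 pairs at T48. Without a library the direction turned for the pair of 110672500 and 110847500 (-0.061 to 0.140) and for the windows after 110750000 (-0.156 to 0.051), 110900000 (-0.217 to 0.086) and 111000000 (-0.294 to 0.081), for the Meg3 sum (-0.039 to 0.262) and for the whole locus (-0.011 to 0.068), all T48 over T0. The causes were not tested. The sum of pairs joining Dlk1 and Meg3 had no value, since none was in all 3 lists.

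With 2 replicate numbers the libraries were not treated as paired. Replicate differences of different groups correlated at 0.345 to 0.408 over pairs and 0.647 to 0.740 over 50 kb windows. With the replicate block there were 0 calls in the locus for every feature, and genome-wide 12, 310 and 193 windows of 50 kb were called, against 0, 13 and 9 without it. DESeq2 called 94 pairs for T48 over T0 in the genome and 0 in the locus. Depth limits these results most for single pairs, whose median listed count in the locus was 6 to 9 per library.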
